A study of Mus musculus with 60 samples.

Results

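The genes described here control and carry iron in the mouse liver. They are the hepcidin genes Hamp and Hamp2, the ligand gene Bmp6 and the target gene Id1 of the bone morphogenetic protein (BMP) pathway, the iron sensing and uptake genes Hfe, Tfr2 and Tfrc, the transporter genes Slc11a2 and Slc40a1, and the ferritin heavy chain gene Fth1. They were picked by name, through the Entrez gene that each array feature stands for, and 10 of 10 were found among the 21115 features. The rule that picks them uses no measured value, but the genes were proposed with earlier results of these data known.

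Liver RNA of 60 mice was hybridised to Affymetrix expression arrays, 1 animal per array. All mice were labelled male, C57BL/6J and aged 12 to 15 weeks, and they came from 3 transgenic lines, INS, DEL and rWT, that carry variants of AHR, the aryl hydrocarbon receptor through which dioxins act. Each was gavaged once with TCDD (2,3,7,8-tetrachlorodibenzo-p-dioxin) dissolved in corn oil, or with the oil only, and livers were collected after 96 hours. The INS line had 4, 4, 4 and 5 mice at 125, 250, 500 and 1000 µg/kg TCDD and 5 corn oil mice, the DEL line had 4 mice at each dose and 5 corn oil mice, and the rWT line had 3, 3, 4 and 2 mice at the same doses and 5 corn oil mice. The sources used here do not give how the receptor variants differ, what drives the transgene, or whether a receptor of the host remains. Levels are deposited on a log2 scale, so that a difference of 1 is a 2-fold change. A feature is called below where limma's adjusted p was under 0.05.

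Hepcidin is a peptide hormone made by hepatocytes that binds the iron exporter ferroportin, the product of Slc40a1, and brings about its degradation, so that less iron leaves macrophages and the gut. Its gene is switched on through BMP receptors and SMAD proteins, with BMP6 from the liver endothelium as a main ligand and Id1 as a classical target of the same signal, and separately through interleukin-6 and STAT3. Mice carry a pair of hepcidin genes side by side: Hamp encodes the iron-regulating peptide, whereas Hamp2 is not known to regulate iron and is known for higher liver levels in females.

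The neighbouring genes lie on the minus strand of chromosome 7 (GRCm38.p6), Hamp at chr7:30942368-30944029 and Hamp2 at chr7:30922372-30924181. Their promoters are shown because the copies share most of their sequence, while in DEL and rWT Hamp2 was called lower under TCDD and Hamp was not. The difference between the responses of the copies was not tested. The 250 bases before each RefSeq start (chr7:30944030-30944279 for Hamp, chr7:30924182-30924431 for Hamp2) are printed 5′ to 3′ on the minus strand, with capitals for GGCGCC, the core of a BMP response element, and for TTCNNNGAA, the palindrome that STAT factors bind.
Hamp: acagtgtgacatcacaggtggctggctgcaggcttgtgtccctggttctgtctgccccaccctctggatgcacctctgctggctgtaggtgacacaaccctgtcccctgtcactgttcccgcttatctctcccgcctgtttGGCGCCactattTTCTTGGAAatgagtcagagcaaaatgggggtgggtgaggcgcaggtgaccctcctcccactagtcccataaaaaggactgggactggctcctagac
Hamp2: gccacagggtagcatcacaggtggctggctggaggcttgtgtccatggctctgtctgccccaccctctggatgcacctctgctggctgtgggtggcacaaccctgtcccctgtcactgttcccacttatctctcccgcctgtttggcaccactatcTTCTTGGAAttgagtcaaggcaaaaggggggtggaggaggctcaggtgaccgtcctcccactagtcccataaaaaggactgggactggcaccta
The promoters were identical at 227 of 247 aligned bases (91.9%) and differed at 20. The Hamp window held GGCGCC 109 bases and the STAT palindrome 97 bases before the start. The Hamp2 window held the palindrome 94 bases before its start and no GGCGCC, and 1 of the 20 differences, G145A counted from 1 at the 5′ end of the Hamp window (Hamp base first), falls in that core. Both motifs were searched on both strands, and they do not overlap each other in either window. Of 32851 RefSeq promoter windows of the same length, 9.59% held GGCGCC and 7.02% the palindrome, and 28.2% held GCGTG, the core that AHR binds. Promoter entries were found for 7 of the 10 genes, with 11 windows in all, of which 2 held GGCGCC (Hamp and a Tfrc window), 2 the palindrome and 5 GCGTG. Neither hepcidin window held GCGTG. A match of letters is a description and not evidence of binding.

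Before the results, 4 rWT arrays have to be set apart. Xist, the RNA of the inactive X chromosome, read 10.7 to 11.4 on rWT corn oil replicates 3, 4 and 5 and on replicate 4 of rWT TCDD 500, while the remaining 56 arrays read 2.41 to 3.44, and the Y-linked gene Eif2s3y read 2.73 to 3.37 on them against 8.15 to 9.72 elsewhere. All 4 are labelled male. Leaving them out keeps 2 of 5 rWT corn oil arrays, and rWT results are also given without them where that ends or adds a call or moves a value by over 1.5 times. Array means also followed the line (5.58 to 5.74 in INS, 6.23 to 6.30 in DEL, 6.01 to 6.07 in rWT), which touches comparisons of corn oil mice between lines but cancels, where it is constant, in TCDD against corn oil within a line. Array medians were less even: 5.22 to 5.38 in INS, 5.81 to 6.25 in DEL and 5.65 to 6.01 in rWT. With each array centred on its median, the median TCDD effect over all features was -0.31 in DEL and -0.29 in rWT. The AHR target gene Cyp1a1 rose by 4.85 ± 0.18 in INS, 4.80 ± 0.18 in DEL and 6.19 ± 0.19 in rWT (log2 difference ± SE), and Tiparp by 2.80 ± 0.21, 3.88 ± 0.21 and 3.50 ± 0.22, so both AHR target genes responded in each line. The 5 measured hepatocyte markers averaged 13.0 to 13.3 in INS, 12.6 to 13.2 in DEL and 12.3 to 13.2 in rWT TCDD arrays, against 13.1 to 13.3, 13.3 to 13.4 and 13.2 to 13.3 in corn oil arrays.

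Under TCDD the main hepcidin gene, Hamp, was not called in any line, whereas its neighbour Hamp2 fell in DEL and rWT. Hamp read 11.42 to 12.92 (median 12.48) on the 17 INS TCDD arrays, against 12.91, 12.91, 13.15, 12.83 and 12.75 on the INS corn oil arrays. On the 16 DEL TCDD arrays it read 12.36 to 12.92 (median 12.78), against 12.98, 12.87, 13.04, 12.79 and 12.73 in DEL corn oil mice. On the 12 rWT TCDD arrays it read 12.04 to 13.22 (median 12.83), against 12.90, 12.66, 12.74, 12.47 and 12.66 in rWT corn oil mice. TCDD and corn oil arrays overlapped in each line, although 10 of 17 INS TCDD arrays lay below all INS corn oil arrays. Averaged over the 4 doses, Hamp differed from corn oil by -0.42 ± 0.15 in INS (adjusted p = 0.297; 95% interval -0.71 to -0.12), by -0.18 ± 0.15 in DEL (adjusted p = 0.375; -0.48 to 0.12) and by 0.09 ± 0.16 in rWT (adjusted p = 0.655; -0.22 to 0.41). Without the 4 arrays the rWT value was 0.06 ± 0.21 (adjusted p = 0.856). No difference between lines in the Hamp effect was called with all arrays. For INS minus rWT it ran from -0.57 to -0.44 over 39 single omissions. Limma's adjusted p then lay between 0.0327 and 0.171, and 1 omission brought a call. Without the 4 arrays this difference was -0.47 (adjusted p = 0.188). With each array centred on its median the DEL difference was -0.43 ± 0.14 and was called (adjusted p = 0.00682), in a setting where the median of all features in DEL was -0.31. The Hamp group means of 12.31 to 12.91 lie near the top of the arrays, whose highest values were 13.6 to 13.8, and whether the probes still respond in proportion there was not tested.

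Hamp2 fell in DEL and rWT. In DEL it read 6.50, 7.08, 8.22, 8.20 and 7.77 in corn oil mice, then 5.02 to 5.93 at 125, 5.05 to 6.41 at 250, 5.02 to 5.83 at 500 and 4.82 to 5.89 at 1000 µg/kg. The highest of the 16 DEL TCDD arrays (6.41) lay just below the lowest DEL corn oil array (6.50), so the groups did not overlap. The averaged fall in DEL was -2.02 ± 0.32, or 4.04-fold lower in TCDD mice (adjusted p = 1.1e-06). In rWT, 11 of 12 TCDD arrays read 4.61 to 5.61 and the remaining array, TCDD 500 replicate 4, read 6.84, against 7.21, 6.62, 7.97, 9.31 and 8.64 in corn oil mice. The rWT corn oil arrays with high Xist hold the values 7.97, 9.31 and 8.64, and the TCDD array with high Xist is the 6.84, so the size of the fall in rWT rests on these arrays: it was -2.59 ± 0.33 with all arrays (adjusted p = 8.88e-09) and -1.66 ± 0.40 without them (adjusted p = 0.00096).

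In INS, Hamp2 read 5.82 to 7.72 (median 6.77) on the TCDD arrays, against 7.78, 7.83, 8.25, 6.75 and 6.76 in corn oil mice. It differed by -0.74 ± 0.32 (adjusted p = 0.511; 95% interval -1.38 to -0.11), and 8 of the 17 TCDD arrays lay below all corn oil arrays. The averaged TCDD effect on Hamp2 was 1.27 ± 0.45 higher in INS than in DEL (adjusted p = 0.0467) and 1.85 ± 0.46 higher in INS than in rWT (adjusted p = 0.00207), but 0.92 without the 4 arrays (adjusted p = 0.176). Leaving out single arrays ended the call of INS against DEL in 21 of 43 omissions, with adjusted p between 0.0177 and 0.122, and it also ended with the replicate number as a block (adjusted p = 0.0597). Hepcidin genes are expressed in hepatocytes. Of the 5 hepatocyte markers 4 fell in DEL, 2 fell in rWT (3 without the 4 arrays) and 0 were called in INS. Of all features, 34.3%, 40.7% and 0.568% were called in these lines, in either direction. The marker median differences were -0.31, -0.34 and -0.05, and the part of hepatocytes in the Hamp2 result was not tested. Because the copies are so alike, the Hamp and Hamp2 probes may read part of each other's RNA, and how far they do was not tested.

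**Figure D1:**
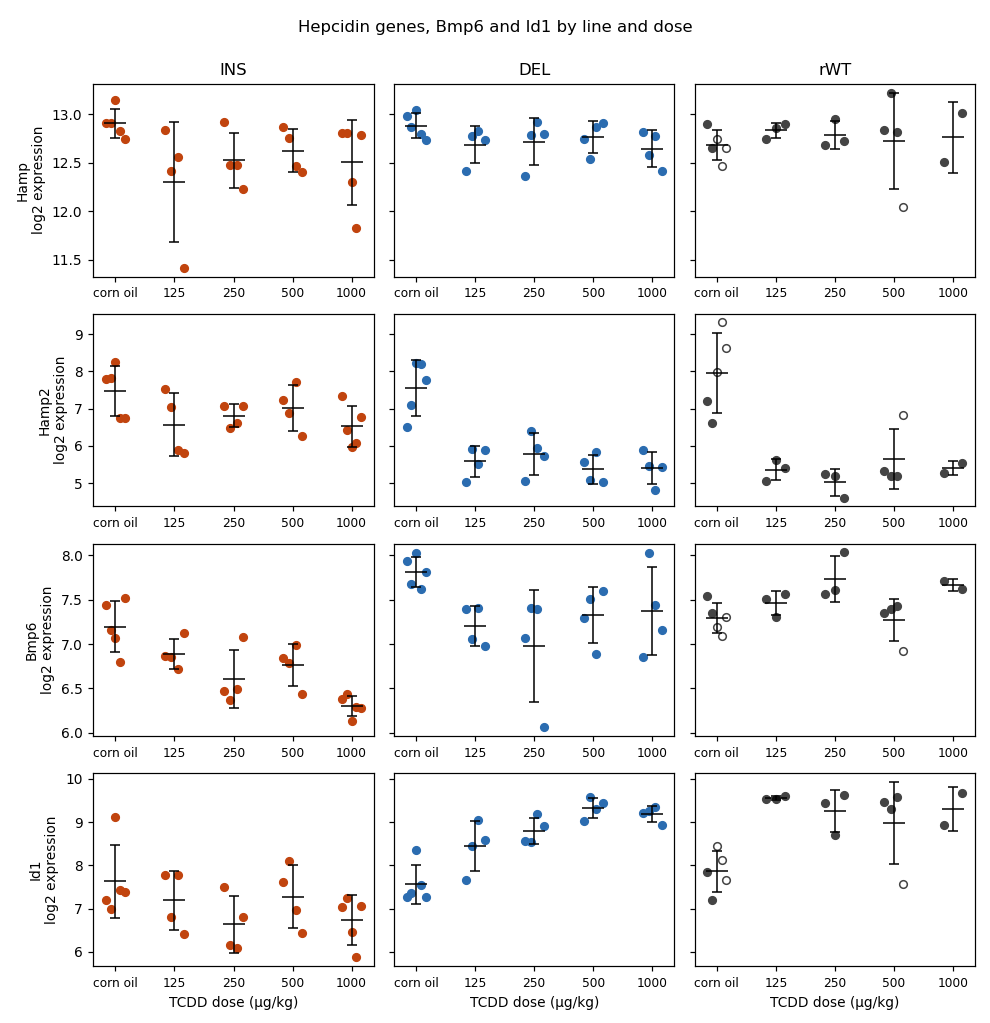
Log2 expression (vertical axes) of Hamp, Hamp2, Bmp6 and Id1 on each array against TCDD dose in µg/kg, with corn oil at the low end, for INS (left), DEL (middle) and rWT (right); points are arrays, open points are the 4 rWT arrays with Xist above Eif2s3y, and bars are group means ± SD. Hamp2 sits at 4.82 to 6.41 on DEL TCDD arrays, below 6.50 to 8.22 in DEL corn oil mice, while Id1 sits at 7.66 to 9.57 in DEL TCDD mice and 5.88 to 8.09 in INS TCDD mice.

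Id1, a transcriptional inhibitor and BMP target, rose in DEL and rWT and was not called in INS. In DEL it read 7.27, 7.37, 8.35, 7.55 and 7.27 in corn oil mice, then 7.66, 8.45, 9.05 and 8.59 at 125, 8.56, 8.54, 9.18 and 8.90 at 250, 9.03, 9.57, 9.29 and 9.43 at 500, and 9.22, 9.25, 9.36 and 8.92 at 1000 µg/kg. In all, 15 of 16 DEL TCDD arrays lay above all DEL corn oil arrays, and the rise was 1.38 ± 0.29, or 2.60-fold (adjusted p = 0.00013). In rWT, 11 of 12 TCDD arrays read 8.71 to 9.67 and TCDD 500 replicate 4 read 7.57, against 7.86, 7.21, 8.45, 8.13 and 7.67 in corn oil mice. The rWT rise was 1.41 ± 0.30 (adjusted p = 0.000151) and 1.86 ± 0.40 without the 4 arrays (adjusted p = 0.000214).

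In INS, the Id1 estimate had the opposite sign and was not called. It read 5.88 to 8.09 (median 6.96) on TCDD arrays, against 7.21, 6.99, 9.12, 7.44 and 7.39 on corn oil arrays, a difference of -0.67 ± 0.29 (adjusted p = 0.514; 95% interval -1.24 to -0.09). Corn oil replicate 3 stood alone at 9.12, and without it the difference was -0.30. The difference between lines was itself called: the TCDD effect on Id1 was lower in INS than in DEL (-2.05 ± 0.41, adjusted p = 0.00026) and lower in INS than in rWT (-2.08 ± 0.42, adjusted p = 0.000163; -2.53 without the 4 arrays, adjusted p = 7.5e-05). Between DEL and rWT it was -0.03 ± 0.42 (adjusted p = 0.988; 95% interval -0.87 to 0.81), and -0.48 ± 0.48 without the 4 arrays (adjusted p = 0.737).

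Bmp6, the ligand gene, fell in DEL but not in rWT, which is a different pattern from that of Id1. It read 6.06 to 8.03 (median 7.34) on DEL TCDD arrays, against 7.94, 7.68, 8.02, 7.62 and 7.81 in corn oil mice, and 15 of 16 TCDD arrays lay below all corn oil arrays. The averaged difference in DEL was -0.59 ± 0.15 (adjusted p = 0.00128). By dose, Bmp6 was called in DEL at 125 (-0.61) and 250 µg/kg (-0.83) but not at 500 (-0.49) or 1000 µg/kg (-0.44). On rWT TCDD arrays it read 6.92 to 8.04 (median 7.54), against 7.54, 7.35, 7.20, 7.09 and 7.30 in corn oil mice, a difference of 0.24 ± 0.16 (adjusted p = 0.222; 0.12 and adjusted p = 0.705 without the 4 arrays). In INS the averaged difference of -0.56 ± 0.15 was not called (adjusted p = 0.0669), although at 1000 µg/kg Bmp6 fell: it read 6.38, 6.43, 6.13, 6.29 and 6.28, against 7.44, 7.16, 7.07, 6.80 and 7.52 in corn oil mice (-0.89 ± 0.18, adjusted p = 0.00472). At that dose the INS groups did not overlap. The TCDD effect was lower in DEL than in rWT (-0.83 ± 0.22, adjusted p = 0.0358; -0.71 and adjusted p = 0.217 without the 4 arrays) and lower in INS than in rWT (-0.80 ± 0.22, adjusted p = 0.00482; -0.68 and adjusted p = 0.0643 without them). Leaving out single arrays ended the first of these calls in 9 of 38 omissions, with adjusted p between 0.0134 and 0.0921, and it also ended with the replicate number as a block (adjusted p = 0.0534).

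BMP6 is made by liver endothelium, so the 7 endothelial markers are given beside it. Their mean log2 level was 7.66 to 8.93 in INS, 8.56 to 9.58 in DEL and 8.43 to 9.11 in rWT TCDD arrays, against 7.96 to 8.68, 8.81 to 9.03 and 8.55 to 8.90 in corn oil arrays. In DEL, where Bmp6 fell, 3 of the 7 rose and 1 fell. In rWT 2 rose and 1 fell, and in INS 0 were called. Of all features, 34.3% were called in DEL, 40.7% in rWT and 0.568% in INS. The part of endothelial cells in the Bmp6 result was not tested. In whole liver, fewer cells of a type and less RNA per cell cannot be told apart, for this and for the other genes.

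The wider BMP and SMAD list, 22 genes apart from the members and all measured, had 12 rises and 4 falls in rWT, 4 rises and 4 falls in DEL, and 0 of either in INS, where 3 had an unadjusted p under 0.05 in limma. Without the 4 arrays the rWT counts were 5 and 5. Of all features 40.7% were called in rWT, 34.3% in DEL and 0.568% in INS, and the DEL count of 8 among 22 is near that background. The median log2 difference of the list was 0.30 in rWT, -0.03 in DEL and -0.13 in INS, beside medians over all features of -0.07, -0.05 and -0.01. Atoh8, a BMP-responsive transcription factor known to act on the hepcidin promoter, rose by 2.09 ± 0.22 in rWT (adjusted p = 5.27e-11) and by 1.50 ± 0.21 in DEL (adjusted p = 7.6e-08). The inhibitory SMAD gene Smad7, itself a BMP target, rose by 1.06 ± 0.22 in rWT (adjusted p = 8.99e-05), and Id3, a relative of Id1, by 0.57 ± 0.23 in DEL (adjusted p = 0.0441). Fkbp1a, whose product binds BMP type I receptors and holds them inactive, rose by 0.95 ± 0.12 in rWT and 0.59 ± 0.11 in DEL. Among the falls were the ligand gene Bmp4 (-1.34 ± 0.21 in rWT, -0.92 ± 0.20 in DEL), the activin receptor gene Acvr2a (-0.52 ± 0.11 in DEL) and Hjv, the BMP co-receptor hemojuvelin (-0.68 ± 0.13 in rWT). Tmprss6, the protease that removes hemojuvelin and so restrains hepcidin, fell in rWT (-0.97 ± 0.12, adjusted p = 8.02e-09) and in DEL (-0.89 ± 0.12, adjusted p = 2.7e-08). Genes that raise and genes that restrain hepcidin stood on both sides of the count. How they bear on Hamp, which was not called, was not tested.

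**Figure D2:**
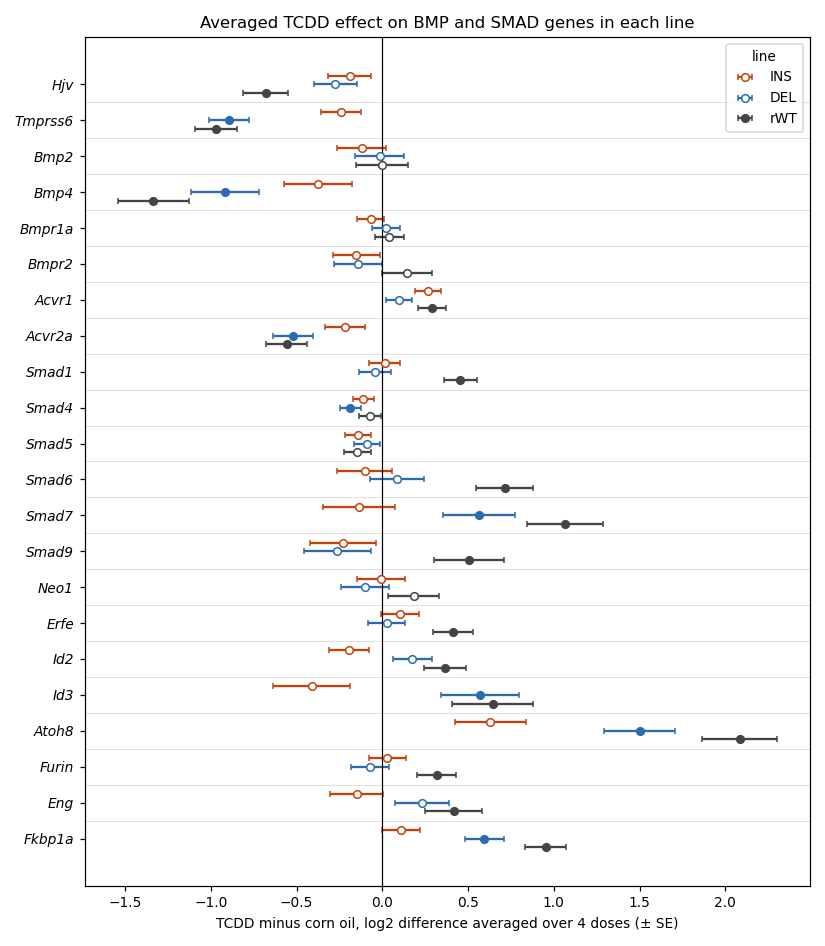
TCDD minus corn oil, as a log2 difference averaged over 4 doses (horizontal axis), for the 22 BMP and SMAD genes in INS, DEL and rWT, with bars for ± SE; filled points were called and open points were not. Atoh8 lies farthest to the right, at 2.09 in rWT and 1.50 in DEL, Bmp4 farthest to the left at -1.34 in rWT, and the INS points are all open.

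Of 10 genes of interleukin-6, STAT3 and related control of hepcidin, 3 rose and 0 fell in DEL, 3 rose and 0 fell in rWT, and 0 were called in INS (1 at an unadjusted p under 0.05), with medians of 0.22, 0.28 and 0.03. These counts too stand beside 34.3%, 40.7% and 0.568% of all features called. In DEL these were the cytokine gene Il1b (1.59 ± 0.31), the activin B subunit gene Inhbb (0.996 ± 0.203) and the interleukin-22 receptor gene Il22ra1 (0.80 ± 0.23). In rWT they were Il22ra1 (1.89 ± 0.25), Inhbb (0.78 ± 0.21) and Il6st, the shared receptor subunit of the interleukin-6 family (0.31 ± 0.11, adjusted p = 0.0249, and 0.136 without the 4 arrays).

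Hamp and Id1 levels were correlated across INS mice that had received TCDD. Over the 3 lines, 15 relations among Hamp, Hamp2, Bmp6 and Id1 were computed, 5 within the TCDD arrays of each line, with permutation tests of 100000 draws and Benjamini-Hochberg adjustment over the 15. In INS (n = 17) Pearson's r of Hamp with Id1 was 0.669 (permutation p = 0.0021, adjusted p = 0.0321) and Spearman's rho 0.735 (permutation p = 0.0011, adjusted p = 0.0159). It was 0.679 without the 2 arrays farthest from the median Hamp level, and 0.793 after each dose's mean was removed. Replicate number was not removed, and the permutations treated the 17 arrays as exchangeable, so their p may be too small. Replicate 1 read Hamp 12.81 to 12.92 and Id1 7.0 to 7.8, and replicate 4 read 11.42 to 12.41 and 5.9 to 6.8. The other replicates read 12.30 to 12.81 and 6.1 to 8.1. Same-numbered INS arrays deviated together in 21 of 41 pairs (correlation over 0.1), against 52 of 152 others. The part of replicate number was not tested. In DEL (n = 16) r was 0.437 (permutation p = 0.0868, adjusted p = 0.155), rho was 0.397 (permutation p = 0.129), and r was 0.003 without the 2 farthest arrays, so it rested on those. In rWT (n = 12) r was 0.721 (permutation p = 0.0329, adjusted p = 0.155), rho was 0.287 (permutation p = 0.367), and r was 0.226 without the 2 farthest arrays and 0.0967 without the TCDD array that has high Xist. The other 12 relations did not pass the adjustment. Whether the relation differs between the lines was not tested.

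**Figure D3:**
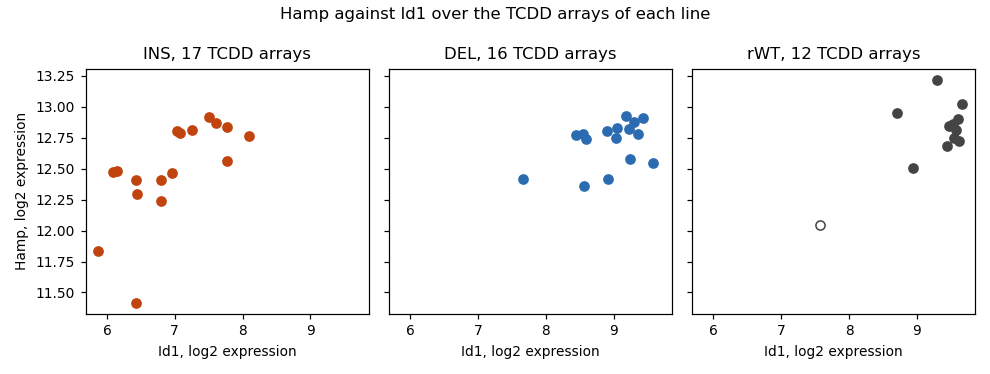
Hamp (vertical axis, log2 expression) against Id1 (horizontal axis, log2 expression) on the TCDD arrays of INS (17), DEL (16) and rWT (12); the open point is the rWT TCDD array with Xist above Eif2s3y. INS points run from low Id1 and low Hamp to high values of both (r = 0.669), while most DEL and rWT points lie at Id1 values above those of INS.

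Among the sensing and uptake genes, Tfrc was the 1 gene called in all 3 lines. It encodes transferrin receptor 1, which brings transferrin-bound iron into cells and whose messenger RNA is stabilised when a cell is short of iron. Tfrc read 5.52 to 7.76 (median 6.67) on INS TCDD arrays, against 6.52, 5.90, 5.75, 5.77 and 5.24 in corn oil mice. On DEL TCDD arrays it read 6.81 to 8.17 (median 7.42), against 6.75, 6.43, 7.32, 6.89 and 6.57. On rWT TCDD arrays it read 6.63 to 7.40 (median 7.06), against 6.30, 5.94, 6.11, 6.16 and 6.86. The groups overlapped in each line, and 11 of 17, 9 of 16 and 9 of 12 TCDD arrays lay above all corn oil arrays of their line. The rise was 0.89 ± 0.20 in INS (1.85-fold, adjusted p = 0.0109), 0.67 ± 0.20 in DEL (1.59-fold, adjusted p = 0.00594) and 0.80 ± 0.21 in rWT (1.74-fold, adjusted p = 0.00144; 0.94 and adjusted p = 0.0108 without the 4 arrays). The INS call ended when INS corn oil replicate 3 (adjusted p = 0.0529) or replicate 5 (adjusted p = 0.138) was left out. It also ended when the INS arrays were fitted on their own (adjusted p = 0.14). The DEL call ended with each array centred on its median (0.42, adjusted p = 0.0636). By dose, the DEL rise was called at 1000 µg/kg only (1.15). It was 0.55 at 125, 0.47 at 250 and 0.51 at 500 µg/kg. No difference between lines in the Tfrc effect was called, and INS minus rWT was 0.09 ± 0.28 (-0.05 ± 0.36 without the 4 arrays).

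Dividing cells need iron, and 5 measured cell cycle genes are given beside Tfrc. All 5 rose in DEL and in rWT, and 0 were called in INS by limma (4 had an unadjusted p under 0.05). Their mean log2 level was 4.77 to 6.15 in INS, 6.36 to 8.62 in DEL and 5.89 to 8.51 in rWT TCDD arrays, against 4.61 to 5.03, 5.02 to 5.52 and 4.36 to 4.99 in corn oil arrays. Erythroid cells also carry Tfrc, and of 5 measured erythroid markers 2 fell in DEL, 4 fell in rWT (3 without the 4 arrays) and 0 rose in any line. The cell cycle and erythroid counts stand beside 34.3% of all features called in DEL, 40.7% in rWT and 0.568% in INS. The part of dividing or erythroid cells in the Tfrc result was not tested.

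Tfr2, the hepatocyte transferrin receptor that senses iron upstream of hepcidin, fell in DEL and rWT. It read 9.35 to 10.44 (median 9.81) on DEL TCDD arrays, against 10.64, 10.34, 10.40, 10.59 and 10.64 in corn oil mice, and 15 of 16 TCDD arrays lay below all corn oil arrays. On rWT TCDD arrays it read 8.87 to 10.14 (median 9.37), against 10.21, 10.06, 10.27, 10.28 and 10.05, and the rWT arrays overlapped through TCDD 500 replicate 4 alone (10.14). The fall was -0.67 ± 0.16 in DEL (adjusted p = 0.000578) and -0.89 ± 0.17 in rWT (adjusted p = 1.68e-05; -0.92 without the 4 arrays). In INS, TCDD arrays read 9.53 to 10.60 against 9.77 to 10.45 in corn oil mice, a difference of -0.03 ± 0.16 (adjusted p = 1; 95% interval -0.34 to 0.29). The TCDD effect was higher in INS than in rWT by 0.86 ± 0.23 (adjusted p = 0.0039; 0.89 and adjusted p = 0.00944 without the 4 arrays) and higher in INS than in DEL by 0.64 ± 0.22 (adjusted p = 0.042). Leaving out single arrays ended the call of INS against DEL in 17 of 43 omissions, with adjusted p between 0.0225 and 0.119.

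Hfe, the haemochromatosis gene, whose product pairs with transferrin receptors in iron sensing, was not called in any line. Its levels ran from 8.29 to 9.29 in INS, 8.92 to 9.94 in DEL and 8.91 to 9.56 in rWT TCDD arrays, against 8.44 to 9.29, 9.06 to 9.46 and 8.68 to 9.40 in corn oil arrays. The averaged differences were -0.01 ± 0.15, 0.25 ± 0.15 and 0.16 ± 0.15, with adjusted p of 1, 0.196 and 0.399. Without the 4 arrays the rWT value was 0.33 ± 0.22 (adjusted p = 0.241).

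Slc40a1, the gene of the exporter ferroportin, rose in DEL. It read 10.16 to 11.22 (median 11.00) on DEL TCDD arrays, against 10.14, 10.24, 10.50, 10.68 and 10.49 in corn oil mice, and 14 of 16 TCDD arrays lay above all corn oil arrays. The rise was 0.53 ± 0.15, or 1.45-fold (adjusted p = 0.0041; 0.28 and adjusted p = 0.0822 with each array centred on its median). In INS it read 9.17 to 10.56 (median 9.93), against 10.33, 9.90, 10.34, 10.26 and 10.27, a difference of -0.32 ± 0.15 (adjusted p = 0.598). In rWT it read 9.77 to 10.69 (median 10.19), against 9.83, 9.78, 10.74, 10.77 and 10.08. The higher rWT corn oil values belong to the arrays with high Xist, and the rWT difference was -0.10 ± 0.16 (adjusted p = 0.625) with all arrays and 0.36 ± 0.20 (adjusted p = 0.163) without the 4. The TCDD effect was lower in INS than in DEL (-0.85 ± 0.21, adjusted p = 0.00338). For DEL minus rWT it was 0.63 ± 0.22 (adjusted p = 0.171), and 0.17 without the 4 arrays.

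Macrophages export much of the iron that they recover from red cells and are rich in ferroportin, so 9 Kupffer cell and macrophage markers are given beside Slc40a1. All 9 rose in DEL, 6 rose and 1 fell in rWT (7 and 0 without the 4 arrays), and 0 were called in INS. Their mean log2 level was 7.65 to 8.47 in INS, 8.74 to 10.1 in DEL and 8.65 to 9.45 in rWT TCDD arrays, against 7.40 to 8.03, 7.98 to 8.37 and 7.88 to 8.89 in corn oil arrays. The median log2 difference of the 9 markers was 1.25 in DEL, 1.03 in rWT and 0.25 in INS. Of all features, 34.3%, 40.7% and 0.568% were called in these lines. The part of macrophages in the Slc40a1 rise in DEL was not tested.

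Slc11a2, the ferrous iron transporter DMT1, was not called against corn oil in any line. It read 6.96 to 8.11 in INS, 7.81 to 8.84 in DEL and 7.21 to 8.39 in rWT TCDD arrays, against 7.26 to 7.82, 8.38 to 8.61 and 7.40 to 7.91 in corn oil arrays. The averaged differences were 0.13 ± 0.14, -0.14 ± 0.14 and 0.31 ± 0.14, with adjusted p of 0.996, 0.46 and 0.0741. Without the 4 arrays the rWT value was 0.08.

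Of 20 other iron and haem transport genes, 8 rose and 3 fell in DEL, 9 rose and 5 fell in rWT (10 and 3 without the 4 arrays), and 0 were called in INS (4 at an unadjusted p under 0.05), beside 34.3%, 40.7% and 0.568% of all features. The list medians were 0.12, 0.07 and -0.01. The largest rise was that of Lcn2, the siderophore-binding lipocalin that neutrophils also carry, by 4.08 ± 0.46 in DEL and 3.69 ± 0.48 in rWT. Slc48a1, a haem transporter of lysosomes, rose by 1.32 ± 0.14 in DEL (adjusted p = 1.09e-10) and 1.45 ± 0.15 in rWT (adjusted p = 1.66e-11), and the ferroxidase gene Heph by 1.05 ± 0.30 and 1.19 ± 0.32. Slc39a14, the ZIP14 transporter that takes up iron not bound to transferrin, fell in DEL (-0.65 ± 0.15) and rWT (-1.07 ± 0.16). The endosomal ferrireductase gene Steap3 (-0.57 ± 0.19) and the ZIP8 gene Slc39a8 (-0.36 ± 0.13) fell in DEL. In rWT, Flvcr2 (-0.66 ± 0.24) and the metalloreductase gene Steap4 (-0.57 ± 0.22) fell with all arrays, and neither was called without the 4 (-0.27 and -0.18).

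Fth1, the heavy chain of ferritin, in which iron is stored, rose slightly in DEL and rWT, but that rise depends on how the arrays are scaled. It read 13.25 to 13.53 (median 13.36) on DEL TCDD arrays, against 13.19, 13.21, 13.12, 13.03 and 13.04 in corn oil mice. On rWT TCDD arrays it read 13.34 to 13.56 (median 13.47), against 13.11, 13.27, 13.18, 13.14 and 13.14. TCDD and corn oil arrays did not overlap in either line. The rise was 0.26 ± 0.05 in DEL (1.19-fold, adjusted p = 2e-05) and 0.29 ± 0.05 in rWT (1.22-fold, adjusted p = 3.64e-06; 0.27 and adjusted p = 0.00311 without the 4 arrays). In INS, TCDD arrays read 13.01 to 13.28 against 13.05 to 13.19 in corn oil mice, a difference of 0.06 ± 0.05 (adjusted p = 0.948). With each array centred on its median, which moved the median of all features to -0.31 in DEL and -0.29 in rWT, the Fth1 difference was 0.00 in DEL (adjusted p = 0.978) and 0.07 in rWT (adjusted p = 0.333), and it turned negative at 250 and 1000 µg/kg in DEL. The TCDD effect was lower in INS than in DEL (-0.20 ± 0.07, adjusted p = 0.0367) and than in rWT (-0.23 ± 0.07, adjusted p = 0.00962; -0.21 and adjusted p = 0.0761 without the 4 arrays), and under median centring neither was called and the first turned to 0.03. Leaving out single arrays ended the call of INS against DEL in 7 of 43 omissions, with adjusted p between 0.0265 and 0.0922. Fth1 values lie close to the highest values of the arrays, and ferritin is known to be controlled mainly in translation, which these arrays do not read.

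**Figure D4:**
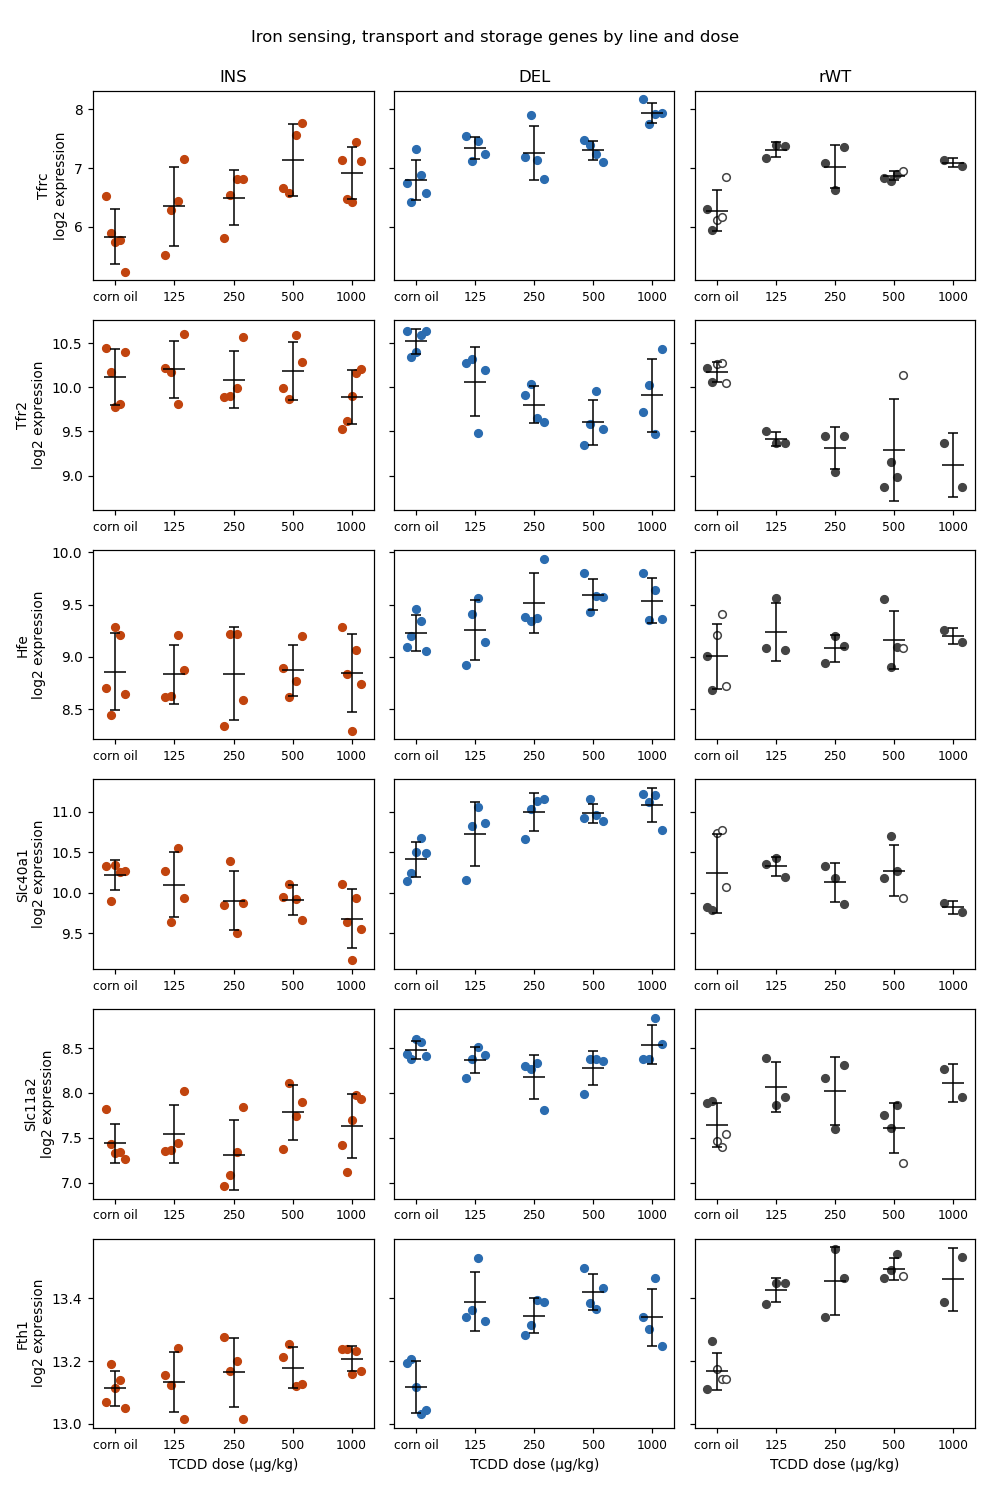
Log2 expression (vertical axes) of Tfrc, Tfr2, Hfe, Slc40a1, Slc11a2 and Fth1 on each array against TCDD dose in µg/kg, with corn oil at the low end, for INS (left), DEL (middle) and rWT (right); points are arrays, open points are the 4 rWT arrays with Xist above Eif2s3y, and bars are group means ± SD. Tfrc lies higher under TCDD in each line, Tfr2 lower in DEL and rWT, and Slc40a1 higher in DEL (10.16 to 11.22, against 10.14 to 10.68 in corn oil mice).

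Of 16 other genes of iron storage, sensing and haem breakdown, 15 were measured. In DEL 4 rose and 3 fell, in rWT 5 rose and 3 fell (4 and 3 without the 4 arrays), and in INS 0 were called (2 at an unadjusted p under 0.05), beside the same 34.3%, 40.7% and 0.568% of all features, with medians of 0.16, 0.14 and 0.01. The iron regulatory protein genes fell together: Ireb2 differed by -0.95 ± 0.09 in DEL (adjusted p = 2.01e-11) and by -0.83 ± 0.10 in rWT (adjusted p = 9.04e-10), and Aco1 by -0.71 ± 0.17 in DEL and -0.67 ± 0.18 in rWT (adjusted p = 0.0522 without the 4 arrays). Their products bind ferritin and transferrin receptor messages when iron is scarce. Among the rises, Hmox1, haem oxygenase 1, which frees iron from haem, rose by 1.83 ± 0.24 in DEL and 1.94 ± 0.25 in rWT, the lines in which the macrophage markers rose, and their part in it was not tested. The biliverdin reductase genes also rose in both, Blvrb by 0.72 ± 0.15 in DEL and 0.95 ± 0.15 in rWT (0.63 without the 4 arrays), and Blvra by 0.68 ± 0.21 in DEL and 0.65 ± 0.22 in rWT (1.14 without them). Smaller falls were called for Pcbp4 in DEL (-0.46 ± 0.13) and for the mitochondrial ferritin gene Ftmt in rWT (-0.24 ± 0.09; adjusted p = 0.0535 without the 4 arrays). Of 13 genes of mitochondrial iron and iron-sulphur clusters 9 were measured. In all, 1 rose and 1 fell in DEL, and 2 rose and 0 fell in rWT (1 and 0 without the 4 arrays), beside the same shares of all features. In DEL, Slc25a28, a mitochondrial iron importer, rose by 0.32 ± 0.09 and the transporter gene Abcb8 fell (-0.38 ± 0.09). In rWT, Slc25a28 (0.53 ± 0.09) and the cluster scaffold gene Iscu (0.21 ± 0.06; adjusted p = 0.161 without the 4 arrays) rose, and in INS 0 of the 9 were called (2 at an unadjusted p under 0.05).

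Counted over the averaged TCDD effect, 1 of the 10 genes was called in INS (Tfrc), 7 in DEL (Tfrc, Slc40a1, Fth1 and Id1 higher, Hamp2, Tfr2 and Bmp6 lower) and 5 in rWT (Tfrc, Fth1 and Id1 higher, Hamp2 and Tfr2 lower). Of all features, 0.568% were called in INS (0.431% higher and 0.137% lower), 34.3% in DEL (16.7% higher and 17.6% lower) and 40.7% in rWT (20.3% higher and 20.4% lower). The rWT count is thus near that background, and a count over 10 genes says little by itself in any line. In INS 6 of the 10 had an unadjusted p under 0.05, as did 1583 of all features. TCDD and corn oil arrays did not overlap for 0 of the 10 genes in INS, for Hamp2 and Fth1 in DEL and for Fth1 in rWT, where 0.208%, 10.9% and 6.73% of all features did not.

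**Figure D5:**
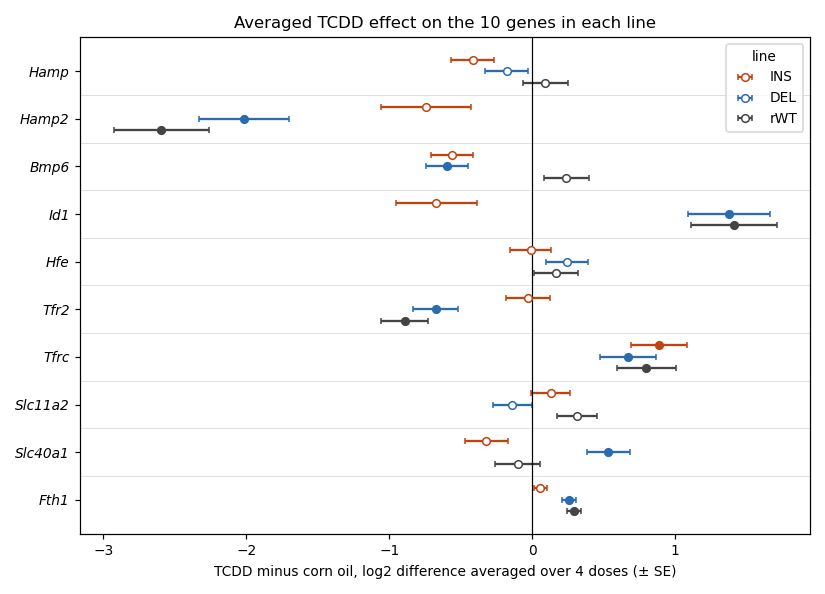
TCDD minus corn oil, as a log2 difference averaged over 4 doses (horizontal axis), for the 10 genes in INS, DEL and rWT, with bars for ± SE; filled points were called and open points were not. Hamp2 lies farthest to the left, at -2.59 in rWT and -2.02 in DEL, Id1 farthest to the right at 1.41 and 1.38, and Tfrc is filled in each line.

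By dose, 41 calls were made among the 120 comparisons of a gene, a line and a dose. In INS 0, 0, 1 and 2 of the 10 genes were called at 125, 250, 500 and 1000 µg/kg, where 0.0805%, 0.142%, 0.232% and 1.02% of all features were. The INS calls were Tfrc at 500 (1.30 ± 0.26, adjusted p = 0.00506) and 1000 µg/kg (1.08 ± 0.24, adjusted p = 0.0107) and Bmp6 at 1000 µg/kg. The Tfrc call at 500 µg/kg ended without INS TCDD 500 replicate 3 (adjusted p = 0.0801) or 4 (adjusted p = 0.105). That at 1000 µg/kg ended without INS corn oil replicate 5 (adjusted p = 0.0742) or INS TCDD 1000 replicate 4 (adjusted p = 0.0538). In DEL the counts were 3, 6, 5 and 6, beside 17.2%, 22.5%, 27.5% and 27.0% of all features, with Hamp2 and Fth1 called at each dose. Tfrc was called in DEL at 1000 µg/kg only, and Bmp6 at 125 and 250 µg/kg only. In rWT they were 5, 5, 4 and 4, beside 23.9%, 30.9%, 23.4% and 28.5%, with Hamp2, Tfr2, Fth1 and Id1 called at each dose and Tfrc at 125 and 250 µg/kg. The lowest dose already gave most of the Hamp2 difference: in DEL it was -1.96 at 125 and -2.15 at 1000 µg/kg, and in rWT -2.59 and -2.54 (-1.56 and -1.51 without the 4 arrays). The trend with log2 dose among TCDD mice was called for 0 of the 10 genes in each line, by limma, where 0.0426% of all features were called in INS, 0% in DEL and 0.0284% in rWT. At an unadjusted p under 0.05 the trend passed for 2 of the 10 genes in INS, 2 in DEL and 0 in rWT. Of all 21115 features, 1352 passed in INS, 2260 in DEL and 746 in rWT at the same threshold.

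Between lines, the difference in the averaged TCDD effect was called for 5 of the 10 genes in INS minus rWT (Hamp2, Tfr2, Fth1, Bmp6 and Id1), where 20.9% of all features were called, and for 5 in INS minus DEL (Hamp2, Tfr2, Slc40a1, Fth1 and Id1), where 14.1% were. For DEL minus rWT it was called for Bmp6, where 1.11% of all features were called. Without the 4 arrays these counts were 3, 5 and 0. Of all 21115 features, 4710 (INS minus rWT), 3500 (INS minus DEL) and 227 (DEL minus rWT) were called in that setting. The INS against rWT comparison then held Tfr2, Id1 and Slc40a1 (-0.68, adjusted p = 0.0365). These comparisons share the arrays of their common line and are not independent of each other.

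Corn oil mice of the lines are harder to compare, because the array levels followed the line: the median difference over all features was -0.54 for INS minus DEL, -0.29 for INS minus rWT and 0.24 for DEL minus rWT, and 75.5%, 41.8% and 36.0% of all features were called. Tfrc (-0.96 ± 0.24), Slc11a2 (-1.04 ± 0.17) and Bmp6 (-0.62 ± 0.18) were called lower in INS than in DEL, Slc11a2 (0.84 ± 0.17) and Bmp6 (0.52 ± 0.18) higher in DEL than in rWT, and 0 of the 10 genes between INS and rWT. Without the 4 arrays the DEL against rWT calls ended for Slc11a2 (0.58, adjusted p = 0.0576) and Bmp6 (0.37, adjusted p = 0.305), and Slc40a1 was called (0.61, adjusted p = 0.0498). After quantile normalization over all arrays 0 of the 3 INS against DEL calls were left (Tfrc -0.37, Slc11a2 -0.48, Bmp6 -0.05), and the median over all features was near 0. Hamp differed by 0.02 ± 0.18 between INS and DEL, by 0.22 ± 0.18 between INS and rWT, and by 0.20 ± 0.18 between DEL and rWT, and Id1 by 0.07 ± 0.36, -0.24 ± 0.36 and -0.30 ± 0.36 in the same comparisons, with none called. With the 4 arrays left out, the comparisons with rWT gave 0.13 (INS) and 0.11 (DEL) for Hamp and 0.10 and 0.03 for Id1, again with none called. Under median centring Hamp was called higher in INS than in DEL (0.63) and rWT (0.68).

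The features whose pattern was most like that of a gene were found over the 60 arrays after each line's mean was removed, as a description with no test. All arrays share the TCDD response, which is part of each likeness. Hamp was most like Gabarap (Pearson's r = 0.671), Mpv17l2 (0.663) and Vamp8 (0.623), and Tfrc most like Utp4 (0.744), Nop2 (0.743) and Gart (0.732). Hamp2 was most like Mmd2 (0.864), Sult1a1 (0.854) and Agxt (0.845), and Id1 most like Arpc1b (0.810), Cmtm3 (0.802) and Lxn (0.797). The likest features of Hamp2 and Id1 had closer patterns than those of Hamp and Tfrc.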

How the data were processed

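The authors deposited log2 expression values, 1 feature per Entrez gene, from RMA; the submitters' processing notes name affy 1.44.0 and R 3.1.2. The sources used here do not give the probe-set definition, the genome build or whether the lines were normalized together. The 21115 features were used unscaled and unfiltered, and 20405 carry 1 gene symbol from the platform annotation, 0 several and 710 none.

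A model with a mean for each of 15 groups was fitted to the 60 arrays (lmFit and eBayes, two-sided, in limma 3.58.1 under R 4.3.3). It gave the TCDD effect (4 TCDD group means averaged, minus corn oil), single doses, the slope on log2 dose, and differences between lines. Within each contrast, p-values were adjusted by Benjamini-Hochberg over all features and called under 0.05. Effects carry the SE of the fit, group levels the SD, and intervals are 95%. Mice were housed singly, and each array is a separate animal; the number of arrays limits the precision.

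The 10 genes, 5 pathway lists and 8 marker lists were chosen with earlier results of these data known. Named genes are the 10 members, up to 3 called genes per pathway list, line and direction with the largest averaged effect, Cyp1a1 and Tiparp, Xist and Eif2s3y, and the 3 features most like Hamp, Hamp2, Tfrc and Id1. Exceptions are in the text. Promoters are RefSeq's on GRCm38.p6. Alternatives were another scaling (quantile, array medians), a filter on dim features, each line on its own, array weights, the replicate number as a block, and arrays left out singly or the 4 with high Xist together. Tested on simulated data with 21115 features, the fit recovered 94 (INS), 89 (DEL) and 89 (rWT) of 100 features changed by a log2 of 1. For a log2 of 2 it recovered 100 of 100 in each line. Among unchanged features, 14 (INS), 9 (DEL) and 14 (rWT) were called. The simulated noise was independent between arrays, so deviations shared by same-numbered arrays were not simulated.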

Additional observations from a re-analysis of the deposited data

Results flagged for a closer look

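Single arrays stood apart from the others of their group in 12 of 120 groups of a gene, line and dose with 4 or 5 arrays, where chance alone gives about 1 in 20. In rWT TCDD 500 replicate 4, the array with high Xist, Hamp2 read 6.84, Bmp6 6.92 and Id1 7.57. In DEL, Hfe read 9.94 on TCDD 250 replicate 4, Tfr2 9.48 on TCDD 125 replicate 3, Slc11a2 7.81 on TCDD 250 replicate 4 and 7.99 on TCDD 500 replicate 1, and Id1 8.35 on corn oil replicate 3. In INS, Tfr2 read 10.58 on TCDD 250 replicate 4, Slc40a1 9.90 on corn oil replicate 2, Slc11a2 8.02 on TCDD 125 replicate 4 and Id1 9.12 on corn oil replicate 3.

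The TCDD effect differed between lines, by the test of the difference itself, for 11 pairs of a gene and a comparison. In INS minus rWT these were Hamp2 (1.85), Tfr2 (0.86), Fth1 (-0.23), Bmp6 (-0.80) and Id1 (-2.08). In INS minus DEL they were Hamp2 (1.27), Tfr2 (0.64), Slc40a1 (-0.85), Fth1 (-0.20) and Id1 (-2.05), and in DEL minus rWT Bmp6 (-0.83). Their adjusted p-values from limma and the values without the 4 rWT arrays are given with each gene above.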

How the results depend on the processing

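With other scaling, filters, fits or arrays left out, 1529 of 1620 recomputed values kept direction and side of the threshold, 36 lost a call, 50 gained one and 5 reversed; of 3600 single omissions 91 lost a call and 20 gained one. A change of sign in an estimate called in neither setting is not counted as a reversal. Limits are the 2 to 5 arrays per group, the 4 rWT arrays, array levels that follow the line, and Hamp and Fth1 values near the top of the scale. The cause was not tested for any change below.

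The 5 reversals were all of Fth1 with each array centred on its median: -0.0349 at 250 and -0.0578 at 1000 µg/kg in DEL, 0.0350 for the difference in effect of INS minus DEL, and 0.41 and 0.60 in corn oil mice for INS minus rWT and INS minus DEL. Median centring gave 2 of the 10 genes in INS, 13835 features called in DEL and 13735 in rWT (7245 and 8584 unscaled), 6423 for INS minus DEL in effect (2978), slopes of 3, 5 and 3 features in INS, DEL and rWT (9, 0 and 6), and in corn oil mice 1 gene and 2540 features for DEL minus rWT, 2 genes and 4968 features for INS minus rWT and 1511 features for INS minus DEL (7600, 8825 and 15950). The share higher among called features became 15.8% in DEL (48.6%) and 20.3% in rWT (49.9%), and for effects 72.1% in INS minus rWT (40.4%) and 79.3% in INS minus DEL (38.5%; 50.7% by quantile). In corn oil mice it was 79.9% for DEL minus rWT (57.7% by quantile, 95.3% unscaled), 84.4% for INS minus rWT (56.3%, 3.35%) and 68.1% for INS minus DEL (51.0%, 0.0815%). In DEL centring ended the calls of Fth1 (0.00), Tfrc (0.42) and Slc40a1 (0.28) and brought in Hamp (-0.43) and Slc11a2 (-0.39).

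Quantile normalization gave slopes of 0, 4 and 2 features, 1 gene and 2823 features for corn oil DEL minus rWT, 3240 features for INS minus rWT, and 0 genes and 1720 features for INS minus DEL. Features at or above the median level gave 2 genes in INS, 0 rWT slopes, 130 features for the DEL minus rWT effect (235) and 2144, 3835 and 6916 in the corn oil comparisons. Each line on its own gave slopes of 2 features in INS and 0 in rWT. Array weights gave 2 genes and 328 features in INS (1 and 120), slopes of 577 in DEL and 247 in rWT, 2 genes and 1000 features for the DEL minus rWT effect, and 5 genes for corn oil INS minus DEL. Without the 4 rWT arrays INS had 192 features, slopes were 18, 72 and 14, the effect counts were 0 genes (DEL minus rWT) and 3 genes (INS minus rWT), and corn oil DEL minus rWT had 1 gene and 3501 features.

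Single omissions gave 0 to 2 genes and 77 to 150 features in INS, slopes of 0 to 17, 0 to 330 and 2 to 13 features, 0 to 1 genes and 147 to 585 features for the DEL minus rWT effect, 2 to 5 genes for INS minus DEL, and in corn oil mice 0 to 1 genes for INS minus rWT and 1 to 3 for DEL minus rWT. Same-numbered arrays deviated together (correlation over 0.1) in 21 of 41 pairs in INS, 10 of 40 in DEL and 15 of 27 in rWT, against 52 of 152, 39 of 136 and 11 of 86 differently numbered pairs. No label states a shared origin, and the main fit did not pair the animals by number. Same-numbered arrays deviated together more often in INS (median correlation 0.114, against -0.0371) and in rWT (0.108, against -0.0212). The main fit treats all arrays as independent, and whether same-numbered arrays share a source was not tested. With the replicate number as a block, 2 rWT slopes were called and 0 genes for the DEL minus rWT effect (Bmp6 -0.80, adjusted p = 0.0534), and the INS minus DEL call of Hamp2 ended (adjusted p = 0.0597).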

Other observations

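Other cell types were read through marker lists in the same arrays. Neutrophil markers rose for 4 of 6 in DEL and 4 of 6 in rWT, with a mean log2 level of 5.21 to 7.08 in DEL and 4.79 to 7.27 in rWT TCDD arrays, against 4.60 to 4.86 and 4.00 to 4.70 in corn oil arrays. Without the 4 rWT arrays 4 rose and 1 fell in rWT. Stellate cell markers rose for 5 of 6 in DEL and 4 of 6 in rWT (5 without the 4 arrays). Lymphocyte markers had 0 calls in DEL, and 1 rise and 2 falls among 5 in rWT (0 of either without the 4 arrays). In INS 0 markers of any of the 8 lists were called by limma (9 had an unadjusted p under 0.05, 4 of them cell cycle genes), and the medians lay between -0.32 (lymphocyte) and 0.62 (cell cycle). Marker counts with all arrays stand beside 34.3% of all features called in DEL, 40.7% in rWT and 0.568% in INS.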
